A study of Homo sapiens with 38 samples.

Results

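The data are a genome-wide CRISPR knockout screen in Hep3B cells, a hepatocellular carcinoma line, under Sorafenib, with its vehicle arm as the comparison. The screen was picked by its labels and comprises 4 of the 38 libraries of the series: 2 Sorafenib libraries and 2 vehicle libraries. Its table holds 66890 guides, of which 132 are control guides against LacZ, luciferase or EGFP, and the rest target 18029 genes, 13666 of them with 4 guides each. Hep3B cells that stably expressed Cas9 carried the TKOv3 guide library and were kept for 14 days in Sorafenib at the dose that inhibits 20% of growth (IC20), or in vehicle, and the common starting pool was sampled as T0. All of these groups carry Cas9 and the library, and 2 libraries were labelled for each. No source says whether the 2 libraries of a group came from separate cultures, so a p-value over libraries covers only the differences seen between them, possibly technical ones. The vehicle libraries carry the label T1. They were taken as vehicle because the other 7 of the 8 groups of the line are named by a drug or as T0.

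In a pooled screen, each cell carries a guide that directs Cas9 to cut a single gene, and the count of that guide after growth measures how many cells with the knockout remain. A knockout that makes cells more sensitive to a drug loses guides under the drug (the gene is then called a resister), and a knockout that helps cells to withstand it gains guides (a sensitizer). Sorafenib is a multikinase inhibitor of RAF, VEGF receptor and PDGF receptor kinases used against liver cancer, and it is also known to limit cystine uptake and to promote ferroptosis, a form of cell death by lipid peroxidation. Cells counter ferroptosis with glutathione and with selenoproteins such as GPX4, whose selenocysteine is made on its own tRNA: PSTK phosphorylates the seryl-tRNA, SEPSECS converts it to selenocysteinyl-tRNA with selenophosphate from SEPHS2, and EEFSEC and SECISBP2 insert it at UGA codons.

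Guide counts carry no expression, so the cell type was looked up in the 3 RNA libraries of the series labelled wild-type Hep3B. Of 10 hepatocyte and Hep3B markers only HNF4A reached 1 FPKM in them, alpha-fetoprotein (AFP) was listed at 0 in all 3 and albumin (ALB) was between 0.428 and 0.685 FPKM, so no RNA level is set beside the screen here. The processing notes name mm9, a mouse build, for these libraries although their gene IDs are human, which leaves the reference behind the FPKM values unclear. Of the fibroblast markers COL1A1 (3.30 to 3.87 FPKM) and PDGFRB (3.03 to 3.31) were above 1, and no blood or endothelial marker was.

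The Sorafenib libraries held 22475286 and 13209868 counts, and the vehicle libraries 24555074 and 12096140. Counts were scaled to 1e+07 per library (normalised counts below), and the Pearson correlation of log2 normalised counts over guides was 0.995 between the Sorafenib libraries and 0.993 between the vehicle libraries, against 0.902 to 0.908 between the groups. Most nonzero counts were even numbers (95.7% and 77.2% in the Sorafenib libraries, 96.7% and 92.9% in the vehicle libraries). With counts halved, libraries of a group still differed by more than counting noise (chi-square per degree of freedom 1.39 for Sorafenib and 1.29 for vehicle). Guides at 0 made up 52.8% and 50.5% of the Sorafenib libraries, 38.7% and 39.4% of the vehicle libraries and 4.34% and 6.43% of the T0 libraries. Among gene-targeting guides that started with a mean T0 count from 20 to under 200, 43.6% were at 0 in both Sorafenib libraries, against 27.1% in both vehicle libraries. Control guides with the same starting counts showed the same order, with 28.9% at 0 under Sorafenib (11 of 38) and 18.4% under vehicle (7 of 38). Guides without a human target were thus at 0 more often under Sorafenib too, but this rests on few guides and was not tested. A guide is called scored below where its mean vehicle count was at least 10.

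**Figure D1:**
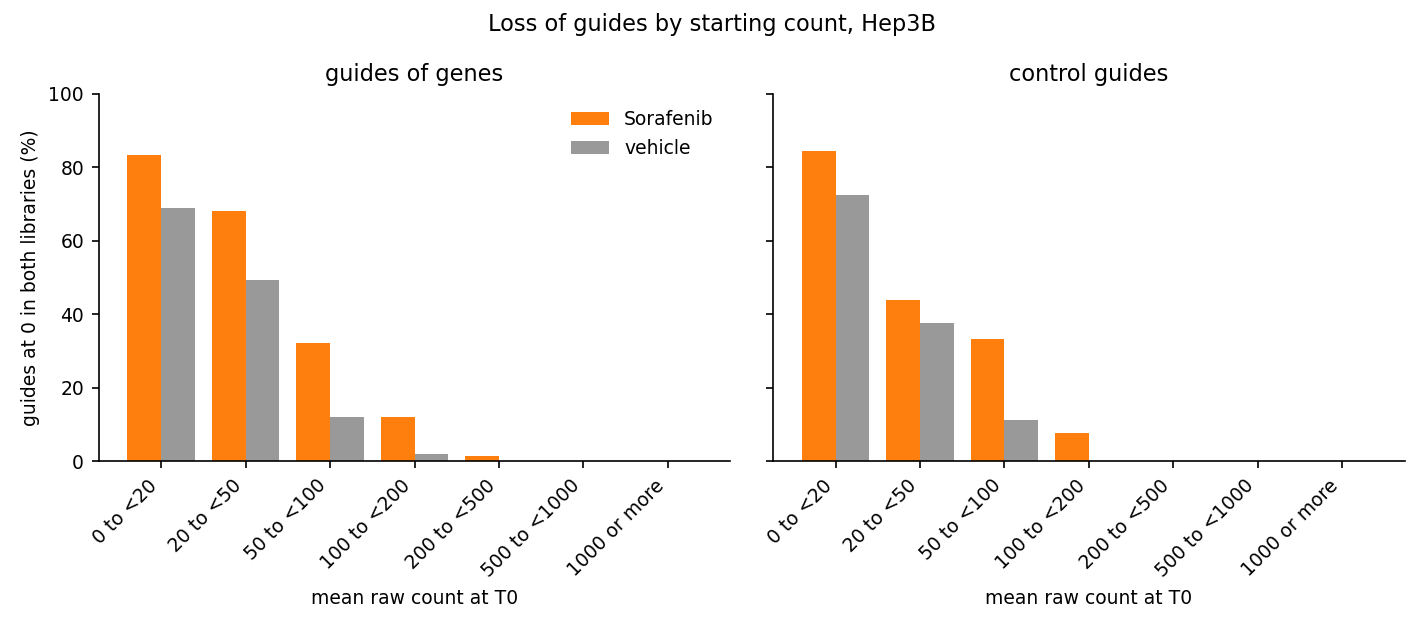
Share of guides at 0 in both Sorafenib libraries (orange, left bars) and in both vehicle libraries (grey, right bars), in percent, by the mean raw count at T0, for guides of genes and for control guides. Below a T0 count of 200 the Sorafenib bar is above the vehicle bar in every bin of both panels.

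Genes were ranked by NormZ, which sums over the guides of a gene the log2 ratio of Sorafenib to vehicle, each divided by the spread of guides of like vehicle count, and is then scaled over all genes. Among called genes negative values are resisters and positive values sensitizers, and a gene is called at a one-sided p under 0.01. NormZ is centred on the mean over genes, so 0 does not mark an unchanged gene. The 1300 genes without a scored guide had a median NormZ of 0.64. ABCG2, with no count under Sorafenib or vehicle, had 0.64 as well. An uncalled value between 0 and 0.64 is therefore no sign of a gain of guides. In all, 301 genes were called lower (1.67% of the 18029 genes) and 141 were called higher (0.782%). After Benjamini-Hochberg adjustment at 0.05, 6 of the lower genes and 2 of the higher genes passed: TSTA3, PSTK, PFKFB4, CTNNBL1, MT1M and AURKAIP1 among resisters, and PRSS48 and ACTR3C among sensitizers. The lower genes had a median log2 ratio over their guides of -1.93 in the first pair of libraries and -1.83 in the second. Every scored guide was lower in both pairs in 262 of the 301 lower genes and higher in both in 106 of the 141 higher genes, which were chosen by the same ratios. Over the 16729 genes with a scored guide, 42.2% had every scored guide lower and 12% had every scored guide higher. Lack of overlap between the 2 Sorafenib and the 2 vehicle libraries was common too. Of 35458 scored guides of genes 89.9% did not overlap (62.4% lower, 27.5% higher), and of 69 scored control guides 88.4% did not (46.4% lower, 42.0% higher), so a guide without overlap is not set apart from other guides by that alone. Lower calls leaned on well-counted genes, since 8.23% of the genes with 4 scored guides were called lower, against 0.109% of genes with 1 scored guide. With median-of-ratios size factors in place of library totals, 263 genes were lower and 199 higher, so that 56.9% of calls were lower, against 68.1% in the main ranking, and the median log2 ratio of scored guides was -0.45 in place of -0.66.

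**Figure D2:**
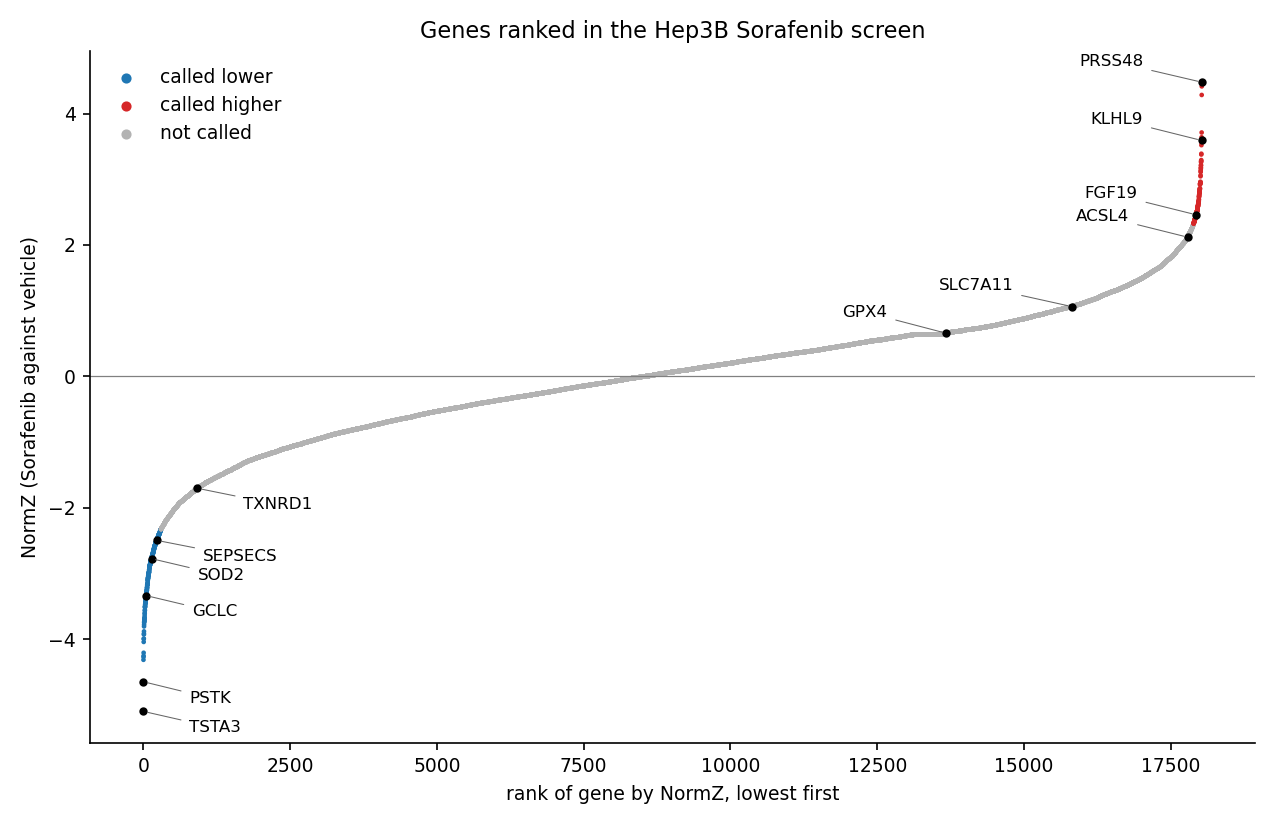
NormZ of the 18029 genes in the order of their rank, with genes called lower in blue, called higher in red and not called in grey, and some genes of the text named. TSTA3 at -5.09 and PSTK at -4.64 stand at the low end and PRSS48 at 4.48 at the high end, while GPX4 and SLC7A11 lie among the uncalled genes.

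PSTK (chromosome 10), the kinase of selenocysteine synthesis, had the second lowest NormZ of the screen (-4.64, FDR 0.0155). All 4 of its guides were lower under Sorafenib than under vehicle in both pairs. No source used here names the genome build of the guide positions, and guides are therefore numbered by their order along the chromosome. The first guide had 2056 and 2031 normalised counts under Sorafenib, against 4436 and 4389 under vehicle and 4226 and 4032 at T0. The second had 31.1 and 34.8 under Sorafenib, against 87.2 and 106 under vehicle. The third had 0 and 3.03 under Sorafenib, against 74.9 and 77.7 under vehicle. The fourth had 0.89 and 0 under Sorafenib, against 26.9 and 16.5 under vehicle. The groups did not overlap in any of the 4 guides, as in most guides of the table, and the log2 ratio, averaged over both pairs, ran from -1.11 for the most abundant guide to -3.68 for the third guide. The first guide held 95.8% of the vehicle counts of PSTK, so that the summed counts fell by 0.95 on the log2 scale (SE 0.036, adjusted p 5.53e-151 by edgeR's quasi-likelihood test), whereas the mean over guides was -2.22 and -2.01. For the first 3 guides the vehicle counts lay near those at T0, where the second had 80.2 and 88.4 and the third 80.2 and 87.7. The fourth guide had only 2.59 and 2.92 at T0, so its vehicle counts lay above a low start.

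SEPSECS (chromosome 4), the next enzyme of that pathway, was called lower with a NormZ of -2.49, at rank 233 from the bottom and an FDR of 0.49. The third guide had 84.5 and 93.9 normalised counts under Sorafenib, against 381 and 341 under vehicle. Its second guide had 52.5 and 59.0 under Sorafenib, against 177 and 193 under vehicle. The first guide was lower by less (125 and 93.1 under Sorafenib, 204 and 190 under vehicle), and the fourth had 30.3 and 27.3 under Sorafenib and 32.6 and 29.8 under vehicle, where the groups overlapped. The SEPSECS call did not hold with a pseudocount of 1 (NormZ -2.16), with median-of-ratios size factors (-2.19), with only guides at a mean vehicle count of at least 30 (-1.75), or without its most abundant guide (-1.47).

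Of the 10 measured genes of selenocysteine synthesis and insertion, PSTK and SEPSECS were called lower and none higher, with a median NormZ of -0.58 against 0.07 over all genes. Over all genes 1.67% were called lower and 0.782% higher, the shares to set beside these and the later counts of list members. The elongation factor EEFSEC (NormZ -1.23), the SECIS-binding protein SECISBP2 (-0.29) and the selenophosphate synthetase SEPHS2 (-0.87) did not pass, each with only 2 scored guides. Of 24 measured selenoproteins, 1 was called lower, SEPP1 (selenoprotein P, the plasma carrier of selenium, NormZ -2.71), and none higher, with a median of -0.43. The SEPP1 call was lost with only guides at a mean vehicle count of at least 30 (-2.22). TXNRD3 (-2.13) and TXNRD1 (-1.70), both thioredoxin reductases, lay below 0 without a call. For TXNRD1 the value turned to 0.20 without its most abundant guide, which had 151 and 137 normalised counts under Sorafenib and 571 and 620 under vehicle.

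GPX4, the selenoenzyme that reduces lipid peroxides, had a NormZ of 0.66, near the 0.64 of genes without a scored guide, and was not called. The third guide had 33.8 and 35.6 normalised counts under Sorafenib, against 85.5 and 103 under vehicle, and its second guide went the other way, with 89.9 and 86.3 under Sorafenib and 33.4 and 31.4 under vehicle. The first guide was at 0 in all 4 libraries, and the fourth was at 0 in all but the second Sorafenib library. The T0 counts of the first and the fourth were already low (at most 2.59 and 14.7 normalised counts), so that the screen measured GPX4 by 2 guides of opposite sign. SLC7A11, the cystine transporter that Erastin blocks, was measured by 1 scored guide (201 and 210 under Sorafenib, 125 and 139 under vehicle) and had a NormZ of 1.06.

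**Figure D3:**
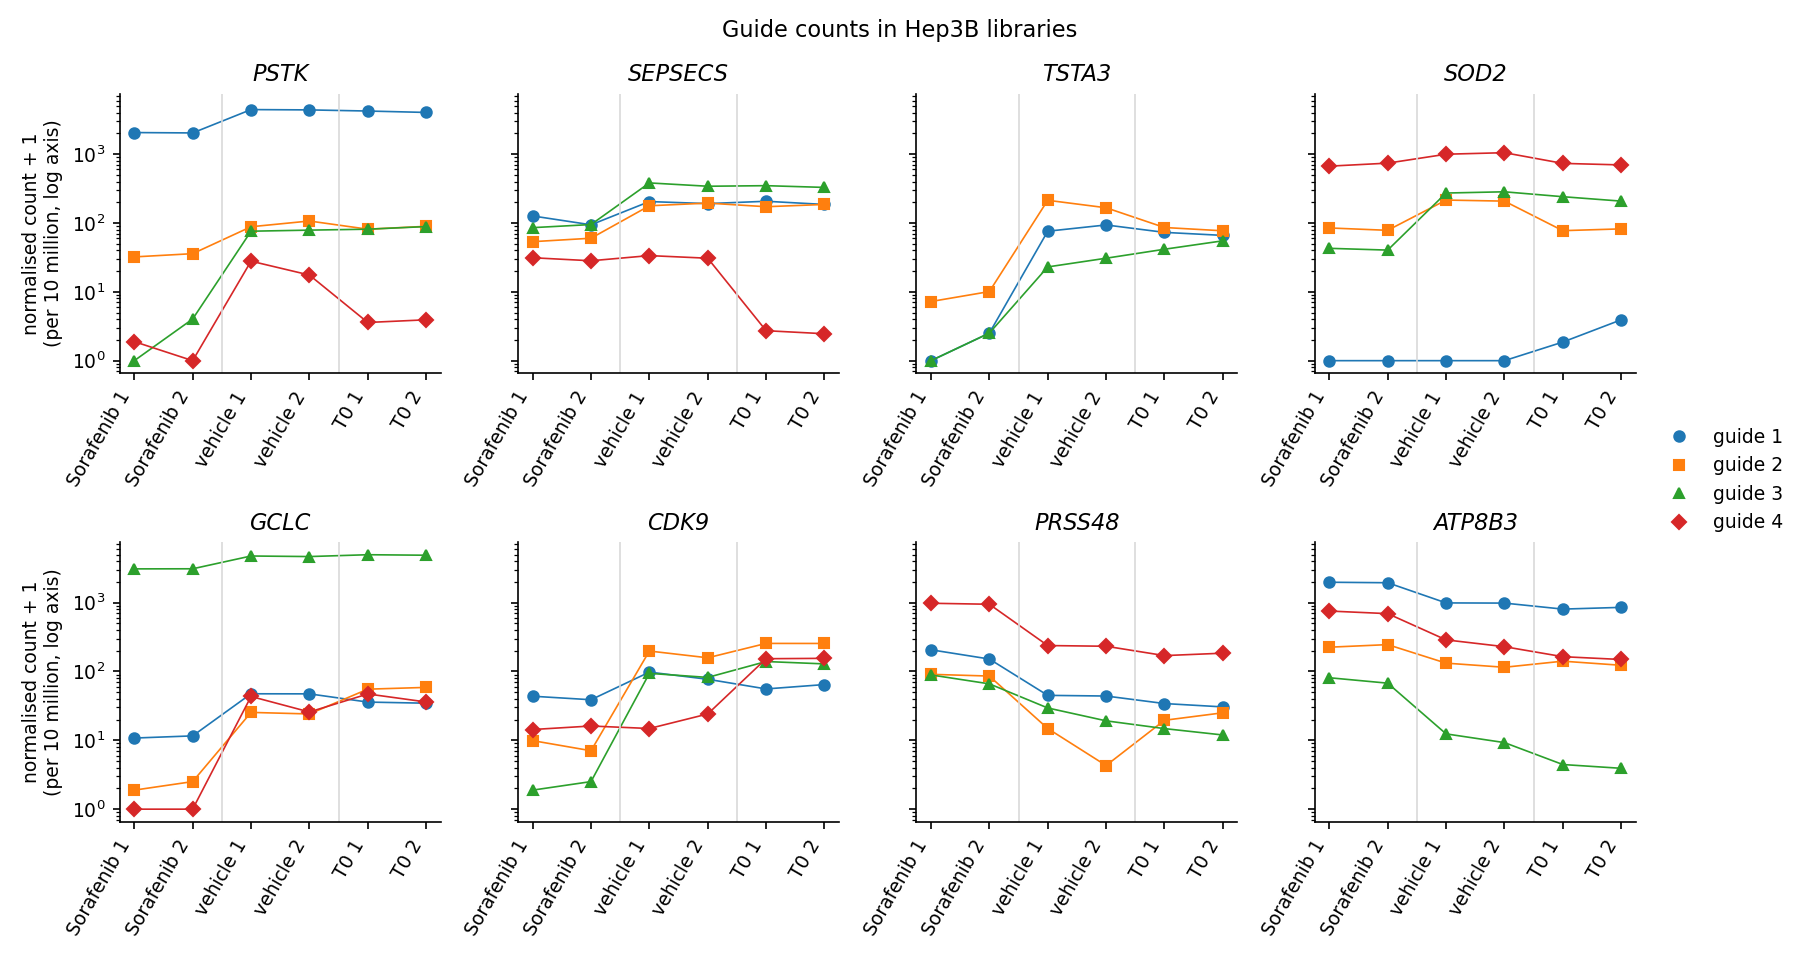
Normalised counts plus 1 of each guide on a log axis (counts per 1e+07) in the 2 Sorafenib, 2 vehicle and 2 T0 libraries for 8 genes, with a line per guide. All 4 guides of PSTK and GCLC and all 3 of TSTA3 are lower in the Sorafenib libraries than in the vehicle libraries, and all 4 guides of PRSS48 and ATP8B3 are higher.

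Glutathione synthesis showed a single call. GCLC (chromosome 6), the catalytic subunit of glutamate-cysteine ligase and the rate-limiting enzyme of the pathway, had a NormZ of -3.33 (FDR 0.162), and its 4 guides were all lower. The third guide had 3091 and 3101 normalised counts under Sorafenib, against 4756 and 4668 under vehicle. The fourth was at 0 in both Sorafenib libraries, against 42.4 and 24.8 under vehicle, and the other 2 guides had at most 10.6 under Sorafenib and at least 23.1 under vehicle. The remaining 14 of the 15 measured genes of glutathione and cystine supply were not called, and the list had a median of -0.13. Among 23 ferroptosis suppressors the lower genes were PSTK, GCLC and SEPSECS with none higher (median -0.44). These are the same genes as called in the lists above, so the lists overlap. Among 22 ferroptosis drivers none was called (median 0.03). The highest of the drivers was ACSL4, which activates polyunsaturated fatty acids for the lipids that are peroxidised, at 2.12. The first ACSL4 guide had 174 and 197 normalised counts under Sorafenib, against 34.2 and 39.7 under vehicle, and the third had 325 and 388 under Sorafenib, against 151 and 170 under vehicle. The other 2 ACSL4 guides were near 0 in every library, and the gene did not pass the test.

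SOD2 (chromosome 6), the manganese superoxide dismutase of mitochondria, was lower with a NormZ of -2.77 (FDR 0.354, rank 141). The third guide had 41.8 and 39.4 normalised counts under Sorafenib, against 271 and 283 under vehicle. The second had 83.6 and 77.2 under Sorafenib, against 214 and 207 under vehicle. It had 76.3 and 81.1 at T0, so its Sorafenib counts lay near those of the starting pool. The fourth had 668 and 739 under Sorafenib, against 996 and 1048 under vehicle, and the first was at 0 in all 4 libraries. All 3 scored guides were lower, without overlap, which is common among scored guides. SOD2 was the only call among the 13 measured genes of superoxide and peroxide removal (median 0.50), and no gene of the 16 of the KEAP1-NRF2 axis was called (median 0.28), with KEAP1 at -1.35 and NFE2L2 at 0.64.

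TSTA3 (chromosome 8), which makes GDP-L-fucose, the donor for fucosylation, was the lowest gene of the screen (NormZ -5.09, FDR 0.00316). Its second guide had 6.23 and 9.08 normalised counts under Sorafenib, against 213 and 165 under vehicle and 85.0 and 76.0 at T0. The first guide had 0 and 1.51 under Sorafenib, against 74.9 and 92.6 under vehicle, and the third had 0 and 1.51, against 21.99 and 29.8. All of its 3 guides were thus nearly lost, with a mean log2 ratio of -3.57 and -3.31. TSTA3 was the only call among 16 measured genes of GDP-fucose supply and fucosylation, which had a median of 0.10.

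The other genes of the low end came from several processes. PFKFB4 (chromosome 3), which sets the level of the glycolysis activator fructose-2,6-bisphosphate, had a NormZ of -4.31 (FDR 0.0387), and its second guide had 17.8 and 18.2 normalised counts under Sorafenib, against 146 and 162 under vehicle. Its first guide was at 0 in both Sorafenib libraries, against 43.98 and 61.2 under vehicle, and the third had 5.34 and 21.2, against 116 and 121. CTNNBL1, a component of the spliceosome, was at -4.27 (FDR 0.0387), and its 2 abundant guides had 80.1 and 84.8 and 16.02 and 27.3 under Sorafenib, against 337 and 336 and 307 and 337 under vehicle. The other 2 CTNNBL1 guides were at 0 under Sorafenib and had at most 7.33 normalised counts under vehicle. Mitochondrial gene expression gave AURKAIP1, a protein of the small mitochondrial ribosomal subunit, at -4.20 (FDR 0.0397) and GRSF1, an RNA-binding protein of mitochondrial RNA granules, at -4.04 (FDR 0.0667). The summed counts of GRSF1 were 18.7 and 26.5 under Sorafenib, against 248 and 304 under vehicle. MT1M, a metallothionein, was measured by a single guide, which was at 0 in both Sorafenib libraries, against 132 and 151 under vehicle. It was thus at least 98.9-fold and 66.6-fold lower than under vehicle when 0 is read as a floor of 3 counts per library. At T0 the guide had 31.9 and 31.4, so its vehicle counts lay above the starting pool. A call on 1 guide has no second guide to compare it with.

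Genes that followed had NormZ from -3.99 to -3.74. Among them were PSMG2, a proteasome assembly chaperone, C22orf43, UTP15 of the small-subunit processome, CAMK2N2, an inhibitor of CaM kinase II, the tubulin TUBB4A, CDK9, the kinase of the elongation factor P-TEFb and the histone deacetylase HDAC7. UTP15 had 32.0 and 35.6 summed normalised counts under Sorafenib, against 294 and 283 under vehicle and 521 and 506 at T0. CDK9 had 65.9 and 60.6 under Sorafenib, against 401 and 337 under vehicle and 600.1 and 599.7 at T0. In both of these genes the vehicle libraries already lay below T0. HDAC7 fell least of these named genes in summed counts, with 3163 and 3024 under Sorafenib and 4708 and 4794 under vehicle, and its second guide had 0.89 and 3.03 under Sorafenib, against 120 and 149 under vehicle. Those of the 15 lowest genes that are named here all stayed called under every alternative that gave a value for them.

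Sensitizers were fewer. PRSS48 (chromosome 4), a serine protease, had the highest NormZ (4.48, FDR 0.046), and the fourth guide had 978 and 946 normalised counts under Sorafenib, against 237 and 231 under vehicle. Its first guide had 206 and 151 under Sorafenib, against 43.98 and 43.0 under vehicle, and all 4 guides were above vehicle in both pairs. ACTR3C (NormZ 4.41, FDR 0.046), an actin-related protein, was measured by a single guide with 148 and 191 under Sorafenib, against 4.07 and 0 under vehicle. That guide had raw vehicle counts of 10 and 0 and is thus below the minimum of a scored guide, so ACTR3C rests on no scored guide. ATP8B3 (4.28, FDR 0.0557), a phospholipid flippase, had summed counts of 3034 and 2946 under Sorafenib, against 1419 and 1334 under vehicle, and its 4 guides were all higher. The next genes were RNF19B, an E3 ubiquitin ligase (3.71), the zinc finger protein ZSCAN16 (3.64), KLHL9, a substrate adaptor of CUL3 ligases (3.59), PPAN of ribosome biogenesis (3.56), the syntaxin-binding protein STXBP3 (3.52), PLEKHA1 (3.39) and the histone H3F3C (3.38). KLHL9 rose to 1151 and 1197 summed normalised counts under Sorafenib, against 415 and 417 under vehicle, with its first guide at 481 and 479, against 55.4 and 49.6. STXBP3 rested on low guides, since its only scored guide had 1306 and 1304 under Sorafenib and 1218 and 1147 under vehicle, while the first guide had 198 and 236 under Sorafenib and 4.07 and 3.31 under vehicle. The calls of RNF19B (NormZ 2.31), PPAN (1.83) and STXBP3 (0.88) were lost with only guides at a mean vehicle count of at least 30, and that of H3F3C (1.90) without its most abundant guide.

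The kinases that Sorafenib binds gave no call: none of 15 passed in either direction, and their median NormZ was 0.60, with FGFR1 lowest at -1.52 and RET highest at 1.55. That median lay near the 0.64 of genes without a scored guide. BRAF (2 scored guides) was at -1.24, KDR (VEGF receptor 2, 1 scored guide) at 0.50 and PDGFRB (2 scored guides) at -0.74. Every scored guide of BRAF, KDR and PDGFRB was lower under Sorafenib in both pairs, as in 42.2% of genes with a scored guide. The KDR guide had 61.4 and 68.1 normalised counts under Sorafenib, against 146 and 149 under vehicle. These kinases were thus measured by few guides. Of 33 measured genes from RAS to ERK, MAPK3 (ERK1) alone was called, lower at -2.60 (median of the list 0.04). Its first guide had 0.89 and 1.51 under Sorafenib, against 167 and 177 under vehicle, whereas the fourth guide had 133 and 106 under Sorafenib and 94.5 and 103 under vehicle, so its guides did not agree, and its call was lost with only guides at a mean vehicle count of at least 30 (-1.82). NF1, an inhibitor of RAS, had 1 scored guide and a NormZ of 0.20, with a sign that changed between settings. The only call among 22 receptor kinases and ligands of liver cells was FGF19, a growth factor of liver cells, higher at 2.46. Its guides had 125 and 164, and 171 and 186, normalised counts under Sorafenib, against 40.7 and 33.1, and 35.8 and 41.3, under vehicle. At T0 the same guides had 126 and 106, and 62.1 and 89.8, so the Sorafenib counts of the first guide lay near those of the starting pool. The FGF19 call was lost with a pseudocount of 1 (2.02), with only guides at a mean vehicle count of at least 30 (2.24), without its most abundant guide (1.75) and without Sorafenib replicate 2 (2.30). No gene of drug transport and metabolism was called (15 measured, median 0.09), with ABCB1 at 0.54, and ABCG2 had no scored guide.

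**Figure D4:**
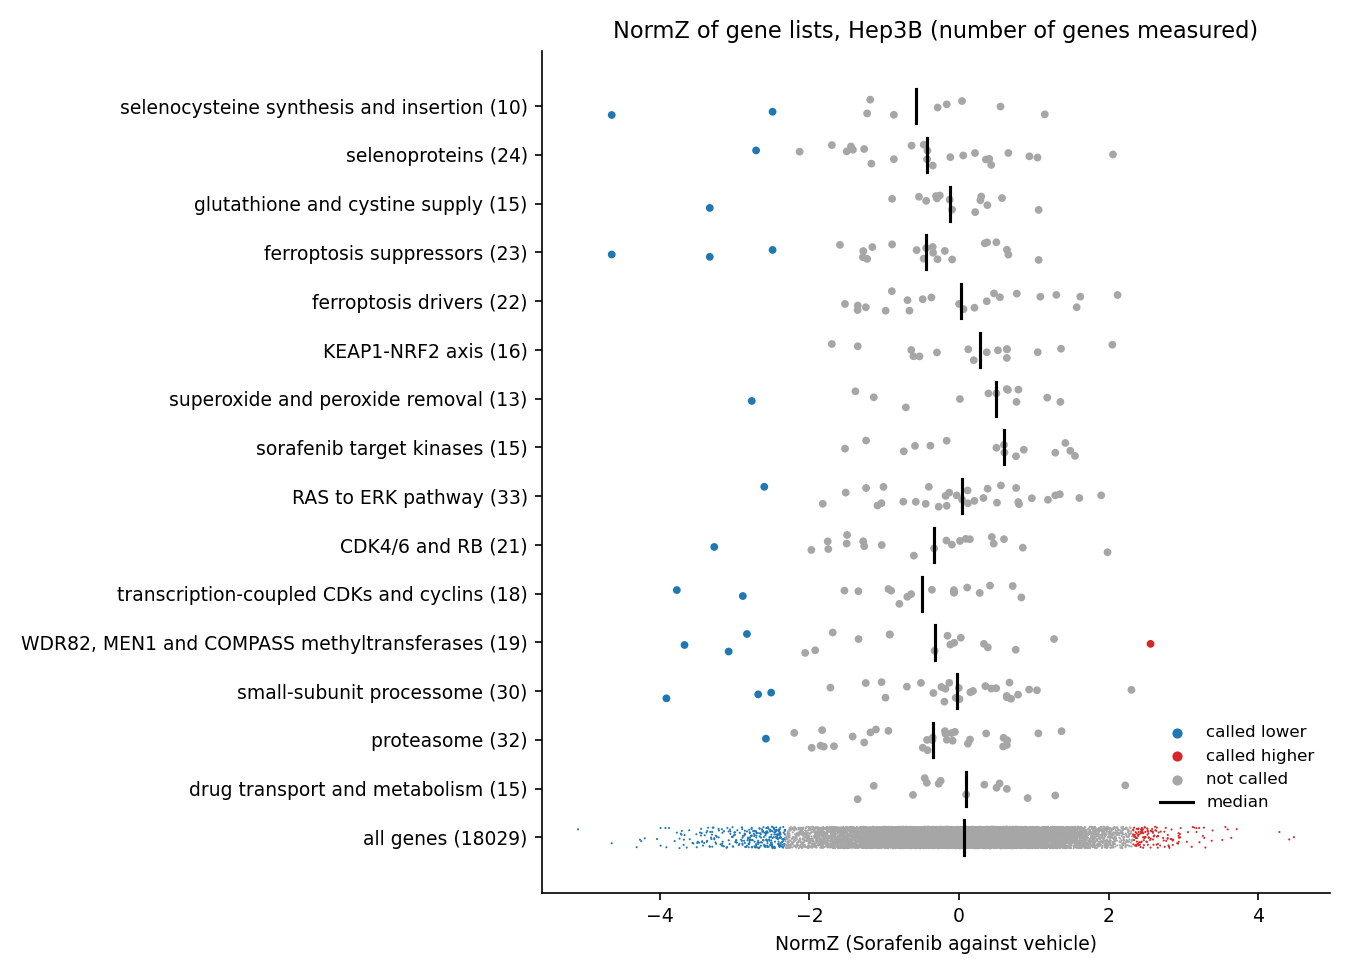
NormZ of the genes in 15 lists and of all genes (each point a gene, blue called lower, red called higher, grey not called, black bar the median). The kinases that Sorafenib binds, the ferroptosis drivers and the KEAP1-NRF2 axis hold no called gene, and medians of the lists lie between -0.58 and 0.60.

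Chromatin, transcription and cell cycle lists held from 1 to 3 genes called lower. MEN1 (-3.67), WDR82 (-3.08) and RBBP5 (-2.84), which work in complexes that methylate lysine 4 of histone H3, were called lower of 19 measured members, and BOD1L1 was higher (2.56, median of the list -0.33). Without the most abundant guide the calls of RBBP5 (-2.09) and BOD1L1 (2.10) were lost, and BOD1L1 had a NormZ of 0.35 with only guides at a mean vehicle count of at least 30. WDR82 had 15.1 and 21.2 summed normalised counts under Sorafenib, against 225 and 230 under vehicle. Of 18 CDKs and cyclins of transcription, CDK9 and CDK11A (-2.89) were lower and none higher (median -0.50), and CDK11A shares near-identical sequence with CDK11B, so its guides may not be specific, and its call was lost without the most abundant guide (-2.19). CDK6 (-3.27) was the only call among 21 genes around CDK4/6 and RB (median -0.33). CDK6 guides disagreed by abundance, since the second guide had 3867 and 3999 normalised counts under Sorafenib and 3661 and 3883 under vehicle, while the first had 12.5 and 19.7 under Sorafenib, against 95.3 and 89.3 under vehicle, and the summed counts of CDK6 differed by -0.04 on the log2 scale (SE 0.031, adjusted p 0.218 by edgeR). RB1 lay at the other side without a call (1.98).

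Metabolic lists were similar in their counts. Folate and 1-carbon enzymes had 3 lower genes of 42, GART (-3.50) and ATIC (-2.35) of purine synthesis and the methionine synthase MTR (-2.62), and 1 higher, GGH (2.56), which trims folate polyglutamates (median -0.22). GART rested on the third guide, with 1.78 and 4.54 normalised counts under Sorafenib, against 242 and 255 under vehicle, and its NormZ was -0.57 without it. Without their most abundant guide the calls of ATIC (-1.31), MTR (-1.29) and GGH (1.98) were lost as well, and that of ATIC also without Sorafenib replicate 2 (-2.20) or vehicle replicate 2 (-2.23). Of 18 genes of selenocompound metabolism PSTK, MTR and SEPSECS were lower and none higher (median -0.60), and all of these calls also belong to lists described above. Of 49 genes of mitochondrial complex I NDUFAB1 was lower (-2.79) and TIMMDC1 higher (2.73), and none of the 17 measured genes of ATP synthase was called. The N-terminal acetyltransferase subunits NAA25 (-2.90) and NAA30 (-2.74) were lower of 13 measured (median -0.68), and the neddylation enzymes UBE2M (-2.71) and NAE1 (-2.53) were lower of 31, with DCUN1D5 higher (2.60, median -0.22). Several of these calls were lost without the most abundant guide, at -0.10 for NAE1, -1.44 for UBE2M, -1.47 for NAA30, 2.11 for DCUN1D5 and 2.32 for TIMMDC1, and those of NDUFAB1 (-1.82) and NAA25 (-2.32) were lost with only guides at a mean vehicle count of at least 30. The NAE1 call was also lost without vehicle replicate 1 (-2.28). KLHL2 (-3.44) and KLHL9 stood at opposite ends of 37 KLHL adaptors (median 0.31). No gene was called in the lists of PI3K, AKT and mTOR, the BCL2 family and caspases, the p53 pathway, Hippo, Wnt and beta-catenin, the unfolded protein response, autophagy and adaptor complex AP-4, whose medians ran from -0.10 to 0.99.

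Genes that most cells need were described against the starting pool, over guides with a mean T0 count of at least 100. Proteasome genes (27 with such a guide) had a median log2 ratio to T0 of -2.25 under Sorafenib and -0.53 under vehicle, and cytosolic ribosome genes (45) had -1.45 under Sorafenib and -0.46 under vehicle. Over all 14962 genes with such a guide the medians were -0.62 under Sorafenib and -0.11 under vehicle, and over 261 olfactory receptor genes, a group that a hepatic line should not depend on, they were -0.42 and -0.12. By NormZ, UTP15, TBL3 (-2.69) and RCL1 (-2.51) of 30 processome genes were lower and none higher (median -0.02). Of 62 ribosomal proteins RPL10A (-3.38), RPL34 (-2.86) and RPL8 (-2.79) were lower and RPL27 higher (2.74, median 0.10). Of 32 proteasome genes PSMC3 was lower (-2.58) and none higher (median -0.36). Of these calls, those of RCL1 (-2.12), RPL34 (-2.02), RPL8 (-2.02), RPL27 (1.93) and PSMC3 (-2.18) were lost with only guides at a mean vehicle count of at least 30, and that of TBL3 (-1.73) without its most abundant guide. Of 338 olfactory receptor genes 5 were called lower and 3 higher (median 0.15), close to the shares over all genes.

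Control guides show how far apart guides without a human target moved in the same libraries. Pooled as if each set were a gene, LacZ (89 guides) had a NormZ of -2.17, luciferase (22) 2.09 and EGFP (21) 1.78. Over all scored guides, the 69 control guides spread about as widely as guides of genes, with log2 ratios from -2.80 to 1.75 between the 5th and 95th percentile (SD 1.44), against -2.90 to 1.497 (SD 1.34). Among the 27 control guides with at least 100 normalised vehicle counts, the same range was -1.13 to 1.02 (median 0.20), against -2.33 to 1.19 (median -0.17) over 13774 guides of genes. In edgeR's quasi-likelihood fit, which takes libraries as the observations and shares the spread over all 16 Hep3B libraries, 18399 guides were lower (41.9% of 43947 tested) and 11607 higher (26.4%) at an adjusted p under 0.05. The same fit called 62 of 84 control guides (73.8%), 30 of them lower and 32 higher. On counts summed per gene it called 7434 genes lower (41.6% of 17851) and 6287 higher (35.2%). The spread between libraries of a group was thus much smaller than the differences between pools in guides without a target, and a small edgeR p therefore marks a difference between these pools. Of the 301 genes lower by NormZ, summed counts were lower by edgeR in 287, higher in 3 and not called in 11, and all 141 higher genes were higher, from the same 4 libraries.

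Sorafenib was also set directly against 2 other inhibitors of the same screen, without the vehicle libraries. Regorafenib is Sorafenib with an added fluorine on its central ring, and Erastin is an unrelated inducer of ferroptosis that blocks cystine import. Each was used at its own IC20, so that doses were matched by growth inhibition and not by concentration. Against Regorafenib 363 genes were lower (2.01%) and 150 higher (0.832%), and against Erastin 371 were lower (2.06%) and 155 higher (0.86%). TSTA3 was lower under Sorafenib than under Regorafenib (NormZ -6.38) and than under Erastin (-3.44). PSTK was lower than under Regorafenib (-3.89) and had a NormZ of -2.11 against Erastin, which did not pass. GCLC was lower than under Regorafenib (-3.51) and did not pass against Erastin (-2.02). PFKFB4 was lower in both contrasts (-2.77 against Regorafenib, -3.07 against Erastin), as were GRSF1 (-4.84 and -5.04) and PSMG2 (-3.63 and -5.18). SOD2 (-1.82 against Regorafenib, 0.63 against Erastin) and SEPSECS (-1.88 and -0.15) passed in neither contrast. Among sensitizers RNF19B was higher in both contrasts (3.36 and 3.80), KLHL9 was higher than under Erastin (2.82) and not against Regorafenib (2.19), and PRSS48 was higher than under Regorafenib (3.78) and not against Erastin (1.99).

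Set against the common vehicle libraries, the inhibitors gave the following values, which share those libraries. PSTK had a NormZ of -4.64 under Sorafenib, -1.89 under Regorafenib, -3.71 under Lenvatinib, -3.82 under Erastin, -5.66 under Abemaciclib and -4.02 under Palbociclib. TSTA3 had -5.09 under Sorafenib, 0.56 under Regorafenib, -3.34 under Lenvatinib, -1.66 under Erastin, -1.77 under Abemaciclib and -2.46 under Palbociclib. SEPSECS was called under Sorafenib and under Erastin (-2.90) and had values from -0.98 to 0.67 under the other 4 inhibitors. GCLC passed under Sorafenib and Abemaciclib (-3.59) and had -0.80 to -1.97 under the other 4.

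SNU-398, a second hepatocellular carcinoma line, was screened under Sorafenib with its own vehicle libraries, so no sequencing library is shared with Hep3B. Both lines carried the TKOv3 guide library, so guides of the same design score a gene in both. In SNU-398, 325 genes were lower (1.80% of 18036) and 152 higher (0.843%). Over the 18025 genes measured in both lines the NormZ values had a Pearson correlation of 0.07, across genes, which are not independent replicates. Lower in both lines were 18 genes, 5.98% of the Hep3B list and 5.54% of the SNU-398 list, and higher in both was 1 gene, C3orf27 (2.86 in Hep3B, 2.37 in SNU-398). The 18 genes included PSTK (-4.64 in Hep3B, -7.26 in SNU-398), SOD2 (-2.77 and -5.67) and SEPSECS (-2.49 and -5.32). They also included WDR82 (-3.08 and -2.90), RPL10A (-3.38 and -3.14), the proteasome ATPase PSMC3 (-2.58 and -3.47), the splicing factors SF3B3 (-3.03 and -2.82) and CDC40 (-2.39 and -2.48), SMC4 of condensin (-3.42 and -2.49), the integrator subunit CPSF3L (-3.14 and -2.66), AP2M1 of the endocytic adaptor AP-2 (-2.40 and -2.55) and COA6 of cytochrome c oxidase assembly (-2.52 and -2.74). The remaining 6 were ACPT, BCKDHB, CFDP1, NHSL2, SRD5A1 and TPST1. Of the 18 genes, 4 (PSTK, SOD2, WDR82 and RPL10A) stayed called in Hep3B under every alternative, and the other 14 lost the Hep3B call under at least 1. Leaving out a single library ended the Hep3B calls of AP2M1 (-2.20 without Sorafenib replicate 2), COA6 (-2.26 without vehicle replicate 2), BCKDHB (-2.26 without vehicle replicate 1) and CDC40 (-2.31 without Sorafenib replicate 1). Summed counts of AP2M1 differed by -0.07 on the log2 scale (adjusted p 0.353 by edgeR). The CDC40 value in Hep3B turned to 0.53 without its single scored guide, and the C3orf27 call was lost with a pseudocount of 1 (2.31). TSTA3 had a NormZ of -0.79 in SNU-398, PFKFB4 0.43, CTNNBL1 -0.71 and AURKAIP1 -1.45, none of which passed there, and the difference between the lines was not tested because the tables come from separate screens.

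**Figure D5:**
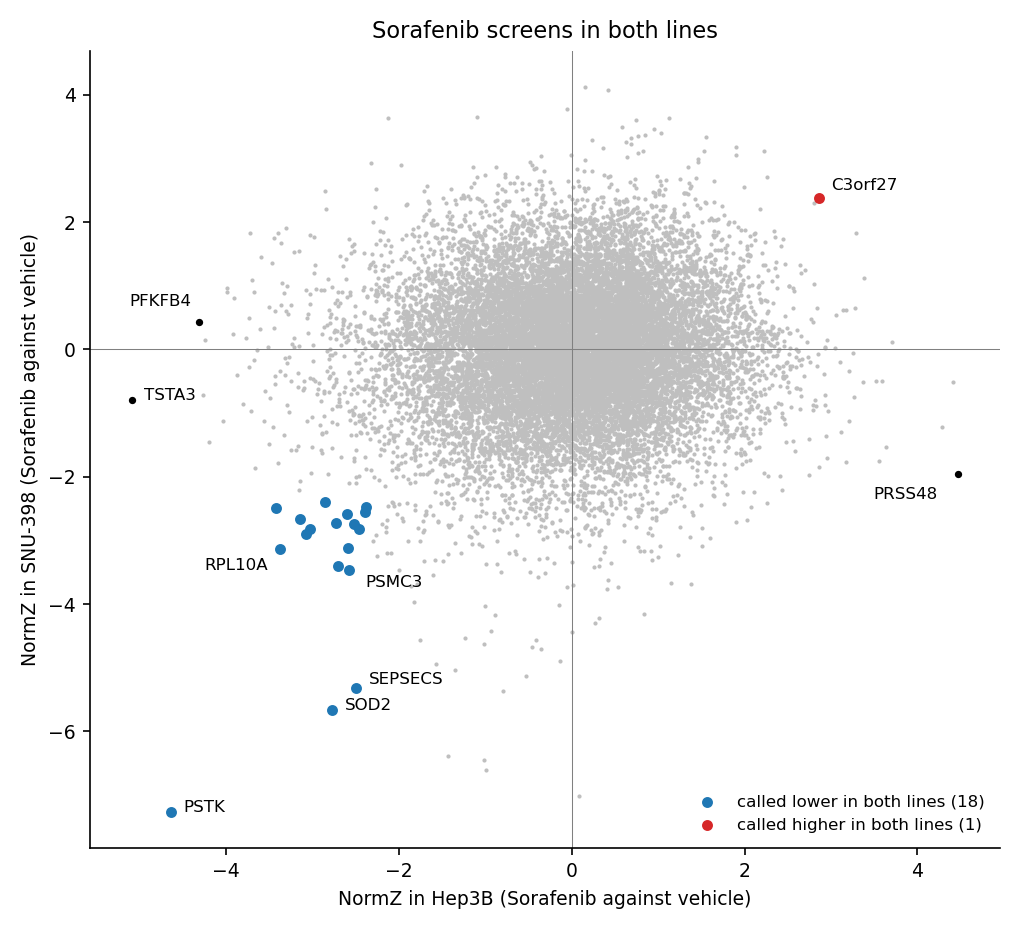
NormZ of each gene under Sorafenib in Hep3B (horizontal axis) and in SNU-398 (vertical axis), each against its own vehicle, with the 18 genes called lower in both lines in blue and the gene called higher in both in red. PSTK at -4.64 and -7.26 lies farthest to the lower left of the 18, and TSTA3 and PFKFB4 lie far to the left near 0 on the vertical axis.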

How the data were processed

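The authors deposited guide counts in whole numbers, in 1 table per cell line with a column per library, made from amplified guide sequences with Bowtie2 (version not given in the sources used here). FPKM values, which the authors obtained with HISAT2 2.0.5 and featureCounts 1.5.0-p3 according to the submitters' processing notes, were read only in the 3 control RNA libraries for cell type markers. NormZ was computed by the steps of DrugZ in pandas 2.3.3, numpy 2.4.6 and scipy 1.17.1 under Python 3.11.15: counts were scaled to 1e+07, a pseudocount of 5 was added, log2 ratios were taken between libraries of equal number and divided by the SD in a window of 1000 guides of like vehicle count (an SD that was not allowed to fall as counts fell), and the standardised sum per gene gave a normal p. The observations of NormZ are guides, and its p therefore does not cover variation between cultures. Whether libraries of equal number belong together is not stated. The spread between libraries was tested with edgeR 4.0.16 in R 4.3.3 (quasi-likelihood, TMM, filterByExpr, Benjamini-Hochberg adjusted p under 0.05, 8 residual degrees of freedom), with DESeq2 1.42.0 as an alternative. Both procedures were run on simulated counts drawn from vehicle means with a fixed spread, in which only chosen genes differed between pools. Those counts therefore do not show how the procedures act where guides without a target differ between pools. Named were the 15 lowest and 10 highest genes, 21 genes of interest and up to 4 members with the smallest p from each of 34 lists. Genes called in both lines, and guides of genes other than PSTK, SEPSECS, TSTA3, PFKFB4, CTNNBL1 and MT1M, were chosen for printing after their values were seen. Other called genes are only counted. The genes and lists were chosen with earlier results of these data known. Depth ran from 12096140 to 24555074 counts per library. Columns of the authors' own comparisons hold fold changes and p-values of the RNA-seq and were not used. Guide sequences were not analysed here. Some genes covered by these rules are not reported here.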

Additional observations from a re-analysis of the deposited data

Results flagged for a closer look

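Some of the 25 genes at the ends of the Hep3B ranking had log2 ratios of Sorafenib to vehicle of opposite sign in SNU-398, in both pairs of libraries of each line. The difference between the lines was not tested for any of them. Given as the mean log2 ratio in Hep3B minus that in SNU-398, it was -3.27 for PFKFB4, -2.85 for UTP15, -2.76 for C22orf43, -2.55 for PSMG2 and -1.45 for HDAC7 among resisters. Among sensitizers it was 5.29 for ACTR3C, which has a single guide, 3.02 for PRSS48, 2.86 for PPAN, 2.82 for H3F3C, 2.50 for ZSCAN16, 2.18 for STXBP3, 2.09 for KLHL9, 1.86 for ATP8B3, 1.43 for RNF19B and 0.94 for PLEKHA1. These genes were picked for extreme values in Hep3B, and HDAC7 in SNU-398 lay within 0.02 of 0 in both pairs. By NormZ, HDAC7 (-0.28), RNF19B (0.12) and PLEKHA1 (1.12) had the same sign in SNU-398 as in Hep3B. Log2 ratios, unlike NormZ, are not centred over genes, and PLEKHA1 had -0.11 and -0.26 in SNU-398. How many of all genes had both ratios below 0 in SNU-398 was not counted. A ratio below 0 there therefore does not set the sensitizers apart from other genes.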

How the results depend on the processing

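Requiring a mean vehicle count of at least 30 left 155 genes lower by NormZ, of which 125 were also called without it, and left 214 lower and 77 higher against Regorafenib and 207 lower and 56 higher against Erastin. A pseudocount of 1 gave 93 higher genes, of which 81 were called with a pseudocount of 5. The causes were not tested. All 301 lower genes were among the 15616 genes still tested at the minimum of 30. All other counts of calls by NormZ and edgeR stayed within 1.5 times the main count, but the genes called changed more than the counts. Without the most abundant guide 409 genes were lower, and they held only 154 of the 301 lower genes. In that setting 163 genes were higher, with 57 of the 141 higher genes among them. With the minimum of 30, 99 genes were higher, with 52 of the 141 among them. Leaving out libraries gave 295 to 316 lower and 124 to 156 higher genes. Comparing without the replicate block gave 301 lower and 139 higher genes by NormZ, and the replicate block in edgeR gave 17827 lower and 11509 higher guides. Deviations of libraries with the same number had a correlation of -0.01 over 28957 guides, so the numbers were not shown to pair the libraries. Of 70 named genes that were called, 28 stayed called in every setting and 30 lost the call with the minimum of 30. Without the most abundant guide 25 lost the call but kept their sign, and CDC40, given below, changed sign. Among genes not called, the sign of NormZ turned for TXNRD1 (0.20) and PDGFRB (0.0843) without the most abundant guide, for KDR (-0.28) with the minimum of 30, and for NF1 with median-of-ratios size factors (-0.00894) and without replicate 2 (-0.0239) or vehicle replicate 2 (-0.0470). Over the settings that leave out libraries NF1 ran from -0.0470 to 0.44. CDC40, called lower, turned to 0.53 without its most abundant guide. Guides with low starting counts were most often at 0 after culture, and the part that sequencing depth has in this was not tested.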
